A study of Mus musculus with 12 samples.

Results

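IL-10, both chains of its receptor and 4 transcription factors tied to effector lymphocytes and to Il10 were followed through mouse group 2 innate lymphoid cells (ILC2s) and eosinophils that had been cultured together or apart. The 7 genes (Il10, Il10ra, Il10rb, Irf4, Batf, Prdm1 and Maf) were chosen by name for these roles, and all 7 were found among the 49315 genes of the count table. RNA-seq libraries from C57BL/6 mice fell into 4 groups of 3: ILC2s with eosinophils, ILC2s alone, eosinophils with ILC2s and eosinophils alone. The ILC2s came from lung, were expanded in IL-33, IL-25, IL-2 and IL-7 and were then held for 48 h in IL-2 and IL-7. The eosinophils were the blood cells left after bead removal of those bearing B220 or CD90, and all had spent 24 h in IL-33. Both cell types were washed and kept for 24 h in medium free of cytokines, alone or together, before sorting. Since no eosinophil group lacked IL-33 and no ILC2 group lacked the expansion cytokines, the effects of these treatments cannot be told apart from the cell type. The labels do not say that replicates came from separate animals or cultures, and p-values therefore reflect only how these libraries vary, which may be technical.

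IL-10 is a cytokine that restrains inflammatory responses and is made by several kinds of activated lymphocyte and myeloid cell. It binds a receptor made of IL-10Rα, the chain particular to IL-10, and IL-10Rβ, a chain shared with receptors of related cytokines, and signals through JAK1, TYK2 and STAT3. IRF4 and BATF bind DNA together next to AP-1 elements in activated lymphocytes, PRDM1 (Blimp-1) is a repressor of terminally differentiated lymphocytes, and MAF is a bZIP factor that acts at Il10 in T cells. ILC2s are innate cells of barrier tissues that lack antigen receptors and release type 2 cytokines, and ILC2s that make IL-10 have been described in mouse lung.

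Of the 7 genes, 3 had a promoter sequence in the RefSeq table (GRCm38.p6), and they are shown because all 3 genes rose together in cocultured ILC2s. The sequences read 5′ to 3′ on the strand of the gene and run up to the RefSeq start of transcription for Prdm1. For Irf4 and Batf they stop 7 and 51 bases short of it, because bases that lie in a GENCODE exon were left out. Capitals mark the AP-1 element TGANTCA, and lower case marks all other bases.
Irf4, chr13:30748983-30749225, plus strand: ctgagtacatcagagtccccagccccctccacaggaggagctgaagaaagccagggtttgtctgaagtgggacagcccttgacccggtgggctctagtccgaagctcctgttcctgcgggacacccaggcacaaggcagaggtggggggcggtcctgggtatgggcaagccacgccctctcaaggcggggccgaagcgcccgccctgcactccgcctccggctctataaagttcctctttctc
Batf, chr12:85686470-85686668, plus strand: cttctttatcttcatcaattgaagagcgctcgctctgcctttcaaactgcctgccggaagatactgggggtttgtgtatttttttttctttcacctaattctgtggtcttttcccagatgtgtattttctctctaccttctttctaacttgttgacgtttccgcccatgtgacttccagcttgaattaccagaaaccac
Prdm1, chr10:44458749-44458998, minus strand: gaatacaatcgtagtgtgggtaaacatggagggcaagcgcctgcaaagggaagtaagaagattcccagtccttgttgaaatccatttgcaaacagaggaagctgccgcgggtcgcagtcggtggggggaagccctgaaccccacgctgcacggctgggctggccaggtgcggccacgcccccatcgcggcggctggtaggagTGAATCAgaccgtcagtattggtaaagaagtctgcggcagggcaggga
The start used for Prdm1 lies inside the longer gene span of the GENCODE annotation. Both strands of the 250-base window before each start were searched for 5 motifs: AP-1 (TGANTCA), the composite AP-1 and IRF element (which contains the AP-1 letters), a short MAF motif (TGCTGA), the PRDM1 core (GAAAGT) and a STAT element (TTCNNNGAA). The Prdm1 window held 1 AP-1 match, TGAATCA, whose farthest base lay 48 bases upstream of the start, and no other match was found in the 3 windows. Over all 32851 RefSeq promoters of that length, 6.75% held the AP-1 letters, 0.152% the composite element, 16.1% the MAF motif, 12.3% the PRDM1 core and 7.02% the STAT letters.

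Library totals ran from 16769929 to 22928961 counts, at which 3 counts corresponded to 0.131 to 0.179 CPM (a gene's counts relative to the total of its library, over 1000000 counts). Levels below are CPM scaled by the TMM method over all 12 libraries, and markers are CPM by library totals. The labels were checked against fixed marker lists, and each group held its own cell type's markers. All 12 ILC2 markers had counts in both ILC2 groups, with Gata3 at 788 ± 15.4 CPM in ILC2s with eosinophils and 935 ± 9.31 CPM in ILC2s alone (SD, n = 3 each). All 12 eosinophil markers had counts in both eosinophil groups, with Siglecf at 1172 ± 11.9 CPM in eosinophils with ILC2s and 1149 ± 6.43 CPM in eosinophils alone (SD, n = 3 each). Summed eosinophil markers in ILC2 libraries were 3.62 to 4.96 CPM with eosinophils and 3.93 to 4.17 CPM alone (exact two-sided permutation p = 0.7, smallest possible 0.1, n = 3 each), or 0.0314 to 0.0430% and 0.0433 to 0.0460% of the eosinophils' own level, with Prg3 at 0 in both and Ear2 at 0 with eosinophils. Summed ILC2 markers in eosinophil libraries were 16.4 to 17.7 CPM with ILC2s and 26.5 to 35.2 CPM alone (exact p = 0.1, n = 3 each), or 0.299 to 0.323% and 0.427 to 0.568% of the ILC2s' own level. In bulk libraries, a larger share of cells that carry a transcript and more of it per cell cannot be told apart.

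In ILC2s, coculture with eosinophils came with large rises of Il10, Il10ra, Irf4, Batf and Prdm1, a small rise of Maf and a small fall of Il10rb. All 7 genes were tested with the edgeR quasi-likelihood test over 14438 genes, at a Benjamini-Hochberg adjusted p under 0.05, and 6 were higher and 1 was lower. Of all genes tested, 72.4% were called, 36.8% higher and 35.6% lower, so a call alone sets a gene little apart from the rest, and the sizes carry more. Ordered from the highest log2 fold change down, Irf4 stood 19th of the 14438, Il10ra 194th, Prdm1 231st and Batf 382nd. Il10 stood next to Irf4, but its place rests on 3 counts in ILC2s alone, and the order of these 2 genes turned in DESeq2 and in 3 of 6 fits that left out a library. The median change of all genes tested was 0.0029 on the log2 scale.

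Il10 (ENSMUSG00000016529, chromosome 1, 131019845 to 131024974, plus strand, mm10) was at the floor of detection in every group but one. Its counts were 229, 218 and 181 in ILC2s with eosinophils and 2, 1 and 0 in ILC2s alone. In eosinophils they were 1, 0 and 0 with ILC2s and 3, 0 and 3 alone. The 3 libraries of cocultured ILC2s were the only ones above 3 counts, at 9.74, 9.66 and 7.42 CPM. Summed over groups, cocultured ILC2s held 628 counts and ILC2s alone 3, a ratio of 190.2 by library totals whose 95% interval of 64.8 to 925 covers counting error only. The fitted log2 fold change was 7.56 ± 0.35 (SE; edgeR adjusted p = 1.73e-17), a value that depends on the prior count because ILC2s alone sat at the floor. It was 8.48 without replicate 1 of ILC2s alone and 6.88 without replicate 3.

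Between the cocultured cells, 628 counts in ILC2s stood against 1 in eosinophils (ratio 601.2 by library totals, 95% counting interval 107.5 to 23780). In eosinophils Il10 did not pass the filter on low counts, so its 1 count with ILC2s and 6 counts alone were not tested. With no filter the fitted change was -2.32 (edgeR adjusted p = 0.555), and a difference between the eosinophil groups was not detectable at this depth. Likewise ILC2s alone (3 counts) and eosinophils alone (6 counts) gave no test of Il10, and -1.34 with no filter (edgeR adjusted p = 0.515).

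**Figure D1:**
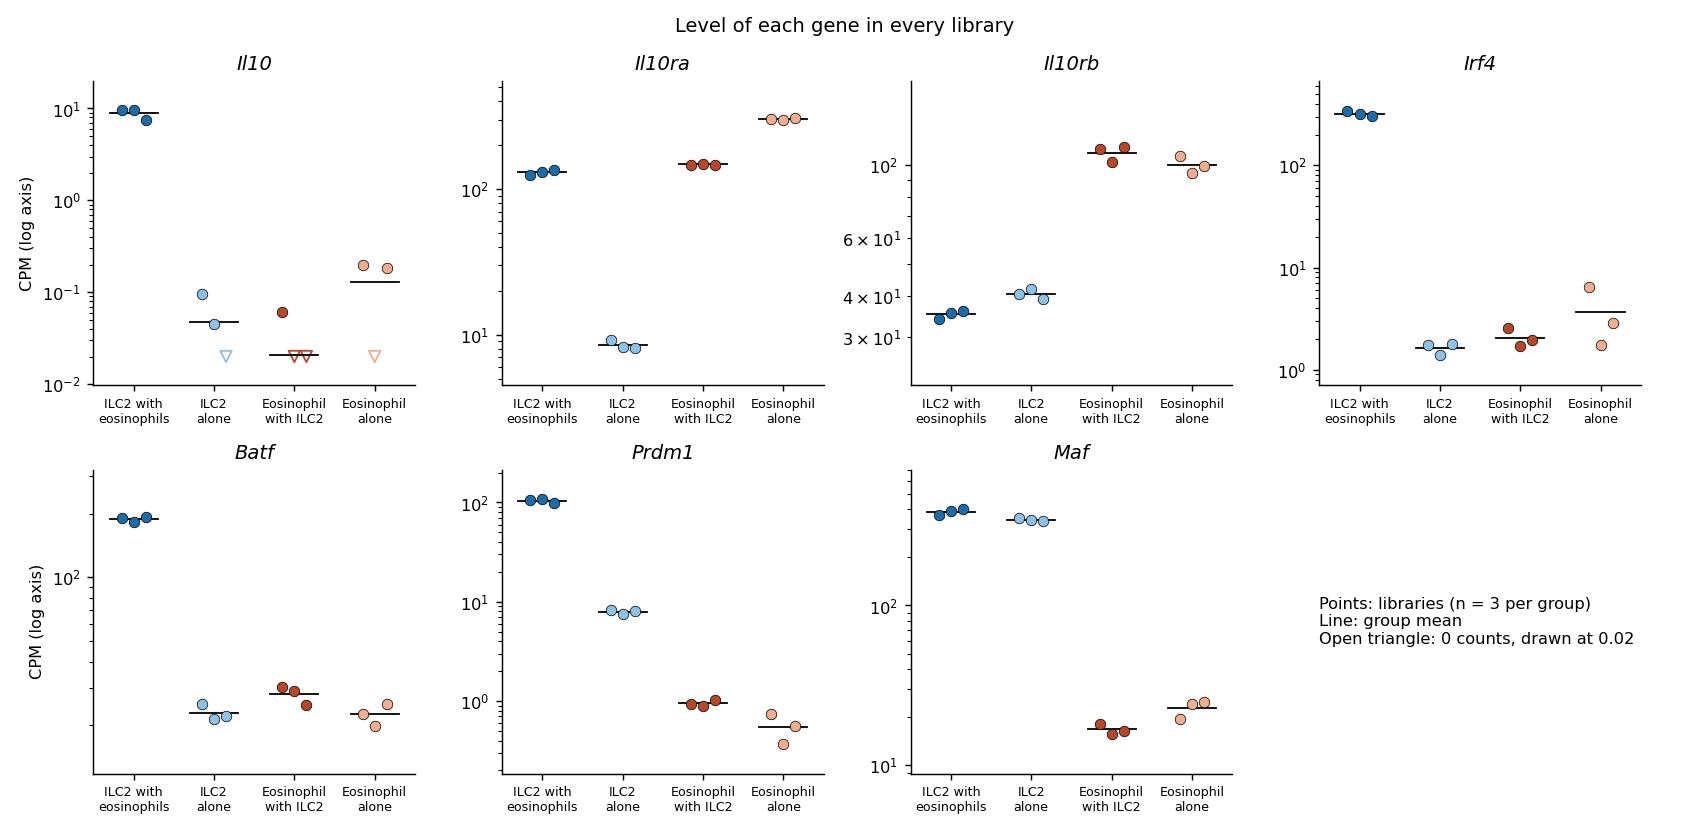
Level of each of the 7 genes in every library, as CPM on a log axis, for the 4 groups of 3 libraries; points are libraries, lines are group means and open triangles mark libraries with 0 counts, drawn at 0.02. Il10 lies between 7.42 and 9.74 CPM in ILC2s with eosinophils, and Irf4, Batf and Prdm1 are each highest in that group, while Il10ra is highest in eosinophils alone.

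The IL-10Rα chain is what makes a cell able to bind IL-10, and its gene changed in opposite directions in the cocultured partners. Il10ra (ENSMUSG00000032089, chromosome 9, 45253837 to 45269149, minus strand) had 125.7, 130.6 and 136 CPM in ILC2s with eosinophils, against 9.16, 8.24 and 8.13 CPM in ILC2s alone. It had 147, 148.7 and 147.2 CPM in eosinophils with ILC2s, against 301.9, 296.2 and 306.9 CPM in eosinophils alone. No libraries overlapped in either pair. The log2 fold change was 3.94 ± 0.06 in ILC2s (edgeR adjusted p = 1.05e-28) and -1.06 ± 0.05 in eosinophils (edgeR adjusted p = 5.62e-09), and the difference of the 2 responses was 4.98 ± 0.08 (edgeR adjusted p = 4.8e-23). Eosinophils alone thus held the highest mean of the 4 groups and ILC2s alone the lowest, and neighbouring groups in that order did not overlap.

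Apart, ILC2s carried much less Il10ra than eosinophils (log2 fold change -5.14 ± 0.07, edgeR adjusted p = 2.61e-17). Together, the means were 130.8 ± 5.16 CPM in ILC2s and 147.6 ± 0.929 CPM in eosinophils (SD, n = 3 each), a log2 fold change of -0.18 ± 0.05 (edgeR adjusted p = 0.00115). The direction of that small gap turned with the scaling, to 0.21 by library totals (adjusted p = 0.00023) and 0.02 by the upper quartile (adjusted p = 0.766). Summed eosinophil markers averaged 4.27 ± 0.667 CPM in cocultured ILC2s and 4.08 ± 0.135 CPM in ILC2s alone (SD, n = 3 each). In cocultured ILC2s they were at most 0.0430% of their level in cocultured eosinophils. The part of eosinophil RNA in the Il10ra level of cocultured ILC2s was not tested.

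The shared chain moved little. Il10rb (ENSMUSG00000022969, chromosome 16, 91406164 to 91425834, plus strand) had 34.2, 35.5 and 36.1 CPM in ILC2s with eosinophils, against 40.7, 42.2 and 39.3 CPM in ILC2s alone. The ILC2 groups did not overlap, and the gene fell by 0.21 ± 0.06 on the log2 scale (edgeR adjusted p = 0.00223). In eosinophils it had 111.8, 102.2 and 113.4 CPM with ILC2s and 107, 95.1 and 99.7 CPM alone, ranges that overlapped, and the change missed the threshold (0.09 ± 0.07, edgeR adjusted p = 0.393). ILC2s carried less Il10rb than eosinophils both alone (-1.30 ± 0.07, edgeR adjusted p = 9.16e-11) and together (-1.64 ± 0.06, edgeR adjusted p = 8.7e-21). A readthrough gene, Gm21970, overlaps 14.9% of its exon bases and had 1 count in all libraries.

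Set per kilobase of exon, the balance of the chains within each library followed Il10ra. Il10ra over Il10rb was 4.04 ± 0.0534 in ILC2s with eosinophils, against 0.228 ± 0.0163 in ILC2s alone (SD, n = 3 each). The same ratio was 1.48 ± 0.0938 in eosinophils with ILC2s, against 3.27 ± 0.174 in eosinophils alone (SD, n = 3 each). Transcripts of the shared chain exceeded those of the specific chain in ILC2s alone and in no other group.

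Irf4, a factor induced by activation in lymphocytes, changed about as much as Il10 in ILC2s, from a base that was counted in every library. It (ENSMUSG00000021356, chromosome 13, 30749226 to 30766976, plus strand) had 339.3, 319.5 and 301.7 CPM in ILC2s with eosinophils, against 1.73, 1.40 and 1.78 CPM in ILC2s alone. The log2 fold change was 7.59 ± 0.08 (edgeR adjusted p = 3.46e-33). Eosinophils had 2.53, 1.69 and 1.93 CPM with ILC2s and 6.48, 1.72 and 2.85 CPM alone, so the 3 cocultured ILC2 libraries stood apart from all 9 others.

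The eosinophil groups overlapped for Irf4, and the value of -0.87 ± 0.40 missed the threshold (edgeR adjusted p = 0.145). It rested on single libraries: -0.19 without replicate 1 of eosinophils alone (adjusted p = 0.774), the library at 6.48 CPM, and -1.21 without replicate 2 (adjusted p = 0.00922). ILC2s alone were called lower in Irf4 than eosinophils alone (-1.15 ± 0.39, edgeR adjusted p = 0.0141), with overlapping ranges and -0.48 without the same replicate 1 (adjusted p = 0.201). Cocultured ILC2s exceeded cocultured eosinophils by 7.28 ± 0.09 on the log2 scale (edgeR adjusted p = 3.41e-32).

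Batf, the bZIP partner of IRF4, was far higher in cocultured ILC2s than in any other group. It (ENSMUSG00000034266, chromosome 12, 85686669 to 85709087, plus strand) had 190.4, 182.4 and 191.7 CPM in ILC2s with eosinophils, against 25.2, 21.6 and 22.3 CPM in ILC2s alone, a log2 fold change of 3.03 ± 0.05 (edgeR adjusted p = 6.87e-28). In eosinophils it had 30.3, 29.1 and 25.0 CPM with ILC2s, against 22.8, 19.9 and 25.3 CPM alone, and these ranges overlapped. The eosinophil value of 0.28 ± 0.11 missed the threshold (edgeR adjusted p = 0.0699), although 4 other settings and 1 left-out library took it past the threshold. Batf averaged 23.01 ± 1.94 CPM in ILC2s alone and 22.7 ± 2.71 CPM in eosinophils alone (SD, n = 3 each). Their log2 difference missed the threshold (0.03 ± 0.10, edgeR adjusted p = 0.798) and moved to 0.60 by library totals (adjusted p = 6.82e-05). Together, ILC2s exceeded eosinophils by 2.74 ± 0.06 on the log2 scale (edgeR adjusted p = 7.83e-26).

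Prdm1 was higher in ILC2s than in eosinophils in either culture. It (ENSMUSG00000038151, chromosome 10, 44437177 to 44528501, minus strand) had 106.1, 107.3 and 98.0 CPM in ILC2s with eosinophils, against 8.25, 7.47 and 8.06 CPM in ILC2s alone, a log2 fold change of 3.70 ± 0.07 (edgeR adjusted p = 2.23e-27). Eosinophils had 0.926, 0.899 and 1.02 CPM with ILC2s and 0.735, 0.369 and 0.557 CPM alone. The eosinophil ranges did not overlap, yet at 49 counts with ILC2s and 26 alone the change of 0.75 ± 0.41 missed the threshold (edgeR adjusted p = 0.222). ILC2s exceeded eosinophils in Prdm1 both alone (3.84 ± 0.25, edgeR adjusted p = 1.65e-09) and together (6.75 ± 0.11, edgeR adjusted p = 1.98e-29).

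Maf was already high in ILC2s cultured alone and, of the 4 factors, changed least in ILC2s. It (ENSMUSG00000055435, chromosome 8, 115682942 to 115707794, minus strand) had 368.8, 391 and 400.5 CPM in ILC2s with eosinophils, against 352, 343 and 337.7 CPM in ILC2s alone. The ILC2 ranges did not overlap, and Maf rose by 0.16 ± 0.04 on the log2 scale (edgeR adjusted p = 0.000721), a call that was lost with library totals in place of TMM (0.0034, adjusted p = 0.942). In eosinophils it had 18.2, 15.6 and 16.5 CPM with ILC2s, against 19.4, 24.1 and 24.9 CPM alone, and fell by 0.48 ± 0.11 (edgeR adjusted p = 0.00747). The summed ILC2 markers in these eosinophil libraries were lower in coculture as well, with 10 of 12 lower in mean and 2 (Tcf7 and Areg) higher. Among them Gata3 had 0.269 CPM with ILC2s and 1.22 CPM alone, and Il7r 3.77 CPM with ILC2s and 3.89 CPM alone, both named after their values were seen. The part of these markers in the lower Maf was not tested. ILC2s exceeded eosinophils in Maf both alone (3.92 ± 0.08, edgeR adjusted p = 2.43e-15) and together (4.52 ± 0.06, edgeR adjusted p = 5.51e-31). An antisense gene, Gm15655, overlaps 5.3% of the exon bases of Maf and had 0 counts.

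In eosinophils as a whole, 6 of the 7 genes were tested, and 0 were higher, 2 were lower (Il10ra and Maf) and 4 did not pass. Of 13109 genes tested there, 24.9% were called, 11.4% higher and 13.5% lower. DESeq2 and limma-voom also called 0 of the 7 higher, and 1 (Batf) had an unadjusted p under 0.05 in edgeR with a value above 0. The SE of the eosinophil values reached 0.41 for Prdm1, against 0.07 for the same gene in ILC2s.

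**Figure D2:**
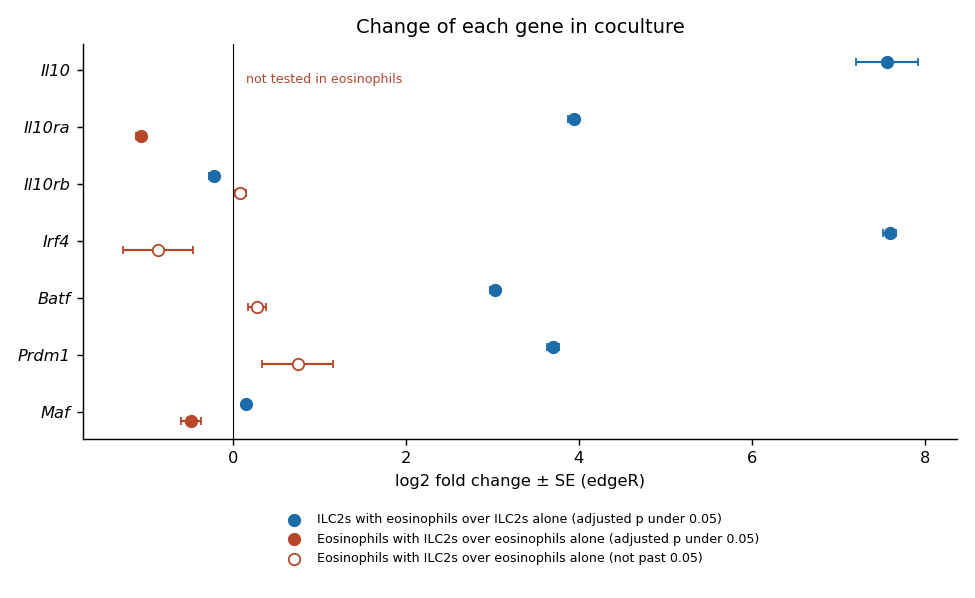
Log2 fold change of each gene in coculture, with its SE, for ILC2s with eosinophils over ILC2s alone and for eosinophils with ILC2s over eosinophils alone; filled points passed an adjusted p under 0.05 and open points did not. Il10 and Irf4 reach 7.56 and 7.59 in ILC2s, and Il10ra lies at 3.94 in ILC2s and -1.06 in eosinophils.

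The difference of the responses, ILC2s minus eosinophils, was tested over all 12 libraries. It passed for all 7 genes, with 6 higher in ILC2s and 1 (Il10rb) lower, where 51.5% of 15745 genes were called, 26.8% and 24.8% in those directions. The largest values on the log2 scale were 9.91 ± 1.56 for Il10 and 8.43 ± 0.40 for Irf4 (edgeR adjusted p = 9.77e-06 and 1.99e-14). The Il10 value depends on the prior count and was 11.98 without replicate 1 of eosinophils with ILC2s, which holds the only count of its group. It was 10.8 and 9.24 without replicates 1 and 3 of ILC2s alone and 10.5 without replicate 2 of eosinophils alone, and the Irf4 value was 7.76 without replicate 1 of eosinophils alone. Batf (2.72 ± 0.12) and Prdm1 (2.93 ± 0.37) followed Il10ra, with edgeR adjusted p = 3.92e-15 and 3.55e-07. Maf (0.62 ± 0.11, edgeR adjusted p = 2.76e-05) and Il10rb (-0.32 ± 0.09, edgeR adjusted p = 0.0035) differed least. The responses share no libraries, since each cell type had its own cultures alone as its base. The labels do not say whether libraries of cocultured ILC2s and cocultured eosinophils came from the same cultures.

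Between the cell types, cocultured ILC2s exceeded cocultured eosinophils in 5 of the 7 genes and were lower in 2, Il10ra and Il10rb, where 84.0% of 14634 genes were called, 43.6% higher and 40.5% lower. Apart, 2 of 6 tested genes (Prdm1 and Maf) were higher in ILC2s than in eosinophils and 3 (Il10ra, Il10rb and Irf4) were lower, where 80.7% of 14525 genes were called, 40.8% higher and 39.9% lower. Scaling by library totals shifted the median of all genes by 0.57 on the log2 scale apart and by 0.40 together. It gave 8587 higher and 3664 lower genes apart, against 5923 and 5796 with TMM, and 8177 and 4247 together, against 6374 and 5922.

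Levels can be compared between genes only per length, as CPM per kilobase of merged exons. In ILC2s with eosinophils the order ran Batf (133.8), Irf4 (65.3), Maf (46.9), Il10ra (37.4), Prdm1 (18.6), Il10rb (9.26) and Il10 (6.83). In ILC2s alone Maf led at 41.8, with Batf at 16.4, Il10rb at 10.7, Il10ra at 2.43, Prdm1 at 1.42, Irf4 at 0.333 and Il10 at 0.0359. Irf4 thus stood below only Batf among the 7 in ILC2s with eosinophils, and above only Il10 in ILC2s alone.

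In eosinophils the receptor chains led. With ILC2s they stood at 42.2 for Il10ra and 28.7 for Il10rb, and alone at 86.2 and 26.4 CPM per kilobase. Batf came next in both groups, at 16.1 in eosinophils alone, and Irf4, Prdm1, Maf and Il10 were each under 5 in both groups. The ratio of Maf to Irf4 per kilobase was 0.721 ± 0.0717 in ILC2s with eosinophils, against 126.8 ± 17.3 in ILC2s alone (SD, n = 3 each). Irf4 to Batf was 0.488 ± 0.0322 in ILC2s with eosinophils, against 0.0204 ± 0.00228 in ILC2s alone (SD, n = 3 each), so Batf exceeded Irf4 per length in both groups.

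**Figure D3:**
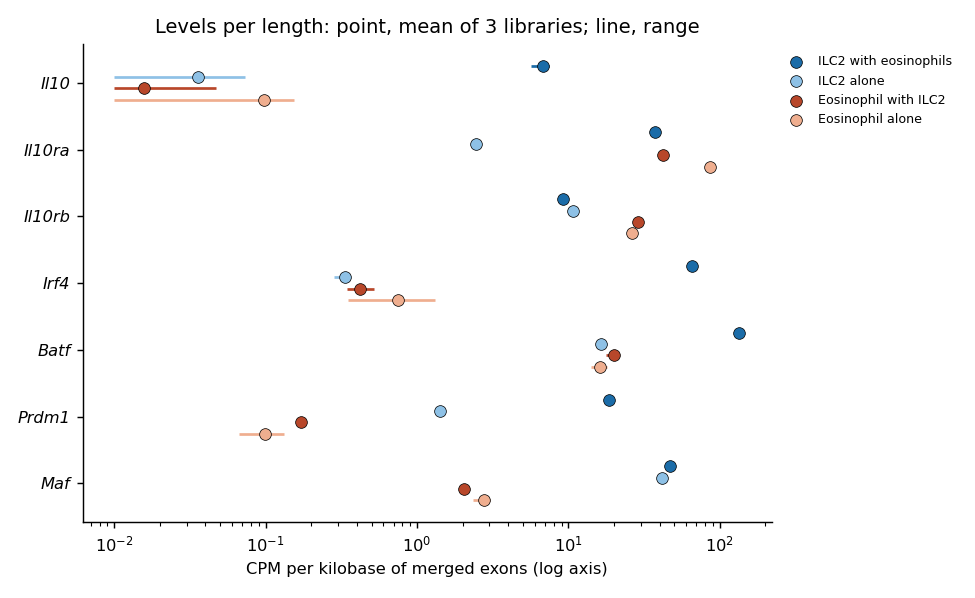
Mean level of each gene in CPM per kilobase of merged exons on a log axis, with the range of 3 libraries as a line, for the 4 groups; lines that reach the left edge run to libraries with 0 counts. Batf at 133.8 and Irf4 at 65.3 are the highest in ILC2s with eosinophils, and Il10ra at 86.2 is the highest in eosinophils alone.

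Genes that act below the receptor were described from a list of 14 that carry or respond to IL-10 signals, most of which also respond to other cytokines. Beside the counts of this list and those below, 36.8% of all genes were called higher and 35.6% lower in ILC2s. In eosinophils these shares were 11.4% and 13.5%. In ILC2s 13 were tested, and 8 were higher, 4 lower and 1 did not pass (median 0.81, against 0.0029 for all genes). In eosinophils 14 were tested, and 3 were higher, 9 lower and 2 did not pass (median -0.52, against 0.0044 for all genes). Socs3, a feedback inhibitor induced by STAT3, gave the largest rise in ILC2s (5.34 ± 0.09, edgeR adjusted p = 3.69e-28) and fell in eosinophils (-1.61 ± 0.07, edgeR adjusted p = 8.75e-10). Nfil3, which encodes a bZIP repressor, averaged 125.9 ± 3.18 CPM in ILC2s with eosinophils and 12.0 ± 0.874 CPM in ILC2s alone (SD, n = 3 each), a change of 3.39 ± 0.06 (edgeR adjusted p = 1.2e-27). Etv3 (-0.80) and Tyk2 (-0.37) had the lowest values in ILC2s, and both passed the test. In eosinophils Il1rn, the gene of the IL-1 receptor antagonist, rose by 0.94 and Socs1 fell by 1.79, both past the test. Stat3 and Jak1, named after their values were seen, were 0.81 and -0.31 in ILC2s, both past the test, and in eosinophils -0.02 (edgeR adjusted p = 0.812) and 0.29 (edgeR adjusted p = 0.00272).

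**Figure D4:**
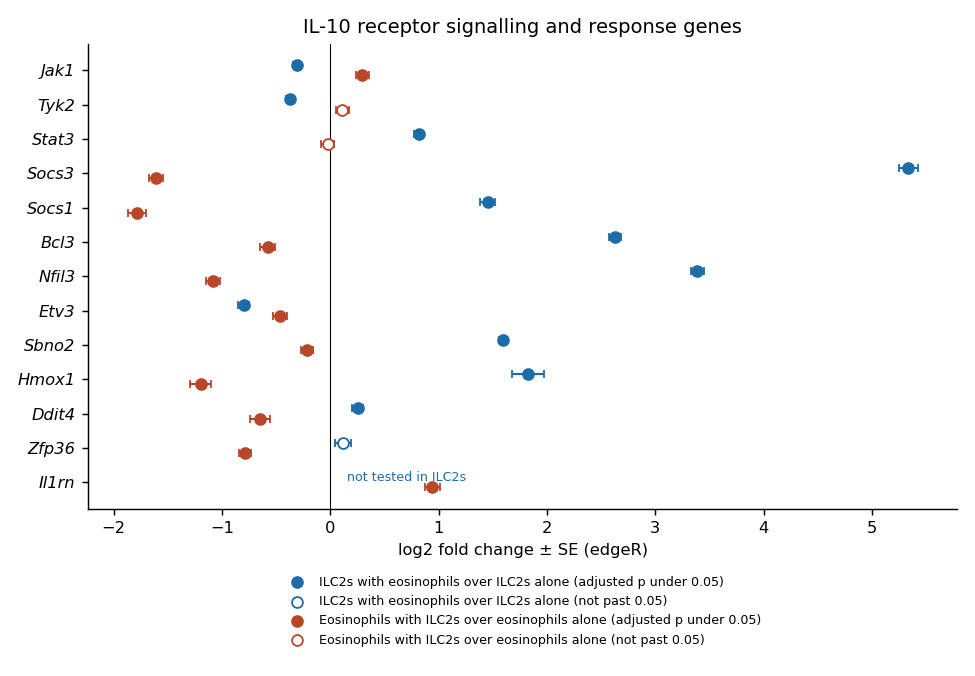
Log2 fold change in coculture, with its SE, of 13 genes of IL-10 receptor signalling and response, for ILC2s with eosinophils over ILC2s alone and eosinophils with ILC2s over eosinophils alone; filled points passed an adjusted p under 0.05. Socs3 lies at 5.34 in ILC2s and -1.61 in eosinophils, and Nfil3 at 3.39 in ILC2s.

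Most relatives of the ligand and its receptor had too few counts to be tested. Of 15 other cytokines and receptors of the family, 5 were tested in ILC2s, with 1 higher and 4 lower (median -0.24), and 5 in eosinophils, with 2 higher, 0 lower and 3 that did not pass (median 0.16). Il20rb rose in ILC2s (0.59 ± 0.24, edgeR adjusted p = 0.0324), and both chains of the type I interferon receptor fell there, Ifnar2 by 0.75 and Ifnar1 by 0.29. The same chains rose in eosinophils, by 0.24 for Ifnar2 and 0.23 for Ifnar1. Il22, a lymphocyte cytokine of this family, had 0 counts in all 4 groups. Il24, another such cytokine, named after its values were seen, had 42 counts in ILC2s with eosinophils (0.340 to 1.06 CPM) and 0 in ILC2s alone, and did not pass the filter on low counts.

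Of 10 partners and relatives of BATF and IRF4, 7 were tested in ILC2s, with 4 higher, 2 lower and 1 that did not pass (median 0.91). Junb, which pairs with BATF on DNA, rose in ILC2s (1.27 ± 0.04, edgeR adjusted p = 7.6e-22), as did Irf8 (1.48 ± 0.10, edgeR adjusted p = 1.74e-13), the closest relative of IRF4. Irf5 fell by 0.95 and Irf1 by 0.78 in ILC2s. In eosinophils 9 were tested, with 3 higher, 3 lower and 3 that did not pass (median -0.41). There Batf3 rose by 0.39 and Irf1 by 0.23, and Junb fell by 0.77 and Jund by 0.49.

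A list of other MAF proteins and the BACH and NRF2 factors that pair with the small MAFs, without Maf itself, had 1 of 6 tested genes higher in ILC2s with eosinophils and 5 lower (median -0.81). Of the MAF genes, Maff rose (0.95 ± 0.19, edgeR adjusted p = 8.29e-05), and Mafg fell by 0.22 and Mafk by 0.58. Their partners Bach2, Bach1 and Nfe2l2 fell by 2.12, 1.48 and 1.04. Mafg, Mafk and Nfe2l2 were named here after their values were seen. In eosinophils 1 of 6 was higher, 2 were lower and 3 did not pass (median -0.20), with Mafk at 0.25, Maff at -1.66 and Mafg at -0.35.

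Of 9 factors that PRDM1 opposes or that act with or against it, 8 were tested in ILC2s, with 3 higher and 5 lower (median -1.09). Tcf7, a factor of less differentiated lymphocytes, fell by 2.89 and Bach2, a repressor of Prdm1 in lymphocytes, by 2.12. Myb rose in ILC2s (7.49 ± 0.18, edgeR adjusted p = 1.29e-24), at 46.3 CPM with eosinophils, and so did Xbp1, a factor of secretory cells (1.54 ± 0.04, edgeR adjusted p = 1.84e-23). In eosinophils 6 were tested, with 2 higher, 2 lower and 2 that did not pass (median -0.42). There Myb rose by 0.98 and Bcl6, a repressor that acts against Prdm1, by 0.92, and Xbp1 fell by 1.70 and Klf2 by 1.24.

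Other transcription factors tied to Il10 in lymphocytes did not move one way. Of 15, 14 were tested in ILC2s, with 5 higher, 7 lower and 2 that did not pass (median -0.10), led by Egr2 (3.46 ± 0.34, edgeR adjusted p = 3.53e-10) and Id3 (1.90 ± 0.13, edgeR adjusted p = 1.23e-13). Foxp3, the factor of regulatory T cells, fell by 0.93 on the log2 scale and averaged 1.07 CPM in ILC2s with eosinophils, and Stat6 fell by 0.53. In eosinophils 12 were tested, with 5 higher, 3 lower and 4 that did not pass (median 0.19), among them Egr2 (0.82), Ikzf3 (0.43), Nfatc2 (-0.79) and Bhlhe40 (-0.55).

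Co-inhibitory receptors, which in T cells are tied to PRDM1 and MAF, had the highest median of the 7 lists in ILC2s. Of 10 genes, 8 were tested, with 6 higher, 1 lower and 1 that did not pass (median 2.71). Ctla4, a receptor that competes with CD28 for its ligands, averaged 191.7 CPM in ILC2s with eosinophils, with a change of 8.64 ± 0.11 (edgeR adjusted p = 1.43e-30). Havcr2 (TIM-3) rose by 2.78 ± 0.20 (edgeR adjusted p = 5.6e-13), and Nt5e (CD73) fell by 1.13. In eosinophils 3 were tested, with 1 (Entpd1, 0.18) higher, 0 lower and 2 that did not pass.

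The genes whose pattern over the 12 libraries was most like that of each member were ranked by the root mean square difference of centred log2(CPM + 0.5) values among 15738 genes, as a description. For Il10 they were Chaf1a (0.263), Dscaml1 (0.277) and Cdca5 (0.288), and for Batf they were Tacc3 (0.130), Hist1h3c (0.202) and Gucy2e (0.205). For Prdm1 they were Cdk1 (0.255), Nuf2 (0.281) and AI506816 (0.316), and for Irf4, more distant, Mmp10 (0.509), Msc (0.635) and Penk (0.718). All of these had their highest group mean in ILC2s with eosinophils.

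Il10ra was most like Nfil3 (0.271), Gatm (0.298) and Gpr146 (0.303), which share its order of eosinophils alone first and ILC2s alone last. Il10rb was most like Gucd1 (0.0839), Prkab1 (0.0845) and Anxa1 (0.0880), and Maf most like Arhgap23 (0.178), Gimap7 (0.193) and Gpx7 (0.203). Among the 7 genes themselves the closest pair was Il10 and Batf (0.549) and the farthest Il10ra and Maf (3.66). Near the floor the added 0.5 CPM narrows differences, which bears on Il10 most.

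Markers of other cells also moved with coculture and are given beside these changes. Neutrophil markers summed to 1.94 to 6.44 CPM in ILC2s with eosinophils and 0.0872 to 0.454 CPM in ILC2s alone, where Ly6g, Elane and Ltf were at 0. Mpo (2.70 CPM, 171 counts) and Elane (0.811 CPM, 51 counts) gave most of the sum with eosinophils. No other marker of the list had more there than the 6 counts of Cxcr2. Of the 8 neutrophil markers, 6 were higher in mean with eosinophils and 2 (Ngp and Mmp8) lower. NK cell markers summed to 3.13 to 4.10 CPM in ILC2s with eosinophils and 1.49 to 1.99 CPM in ILC2s alone (6 markers, with Ncr1 at 0 with eosinophils and Klra8 alone). Prf1 gave most of both sums (2.91 CPM with eosinophils and 1.39 CPM alone). Of the 6 NK cell markers, 3 were higher in mean with eosinophils and 3 lower. T cell markers summed to 94.3 to 100.4 CPM in ILC2s with eosinophils and 91.7 to 97.3 CPM in ILC2s alone, nearly all from Cd3g, with Cd4 at 2 and 4 counts per group. Of the 9 T cell markers, 6 were higher in mean with eosinophils and 3 lower. Among them Cd28 averaged 2.25 CPM with eosinophils and 0.769 CPM alone, and Cd3e 4.11 CPM with eosinophils and 5.47 CPM alone. B and plasma cell markers, which include cells known to express Prdm1 and Irf4, summed to 26.6 to 28.4 CPM in ILC2s with eosinophils and 27.5 to 34.5 CPM in ILC2s alone, with Ms4a1 at 0 with eosinophils and Mzb1 at 0 alone. Against that sum, Cd22 of the same list averaged 3.39 ± 0.421 CPM in ILC2s with eosinophils and 0.207 ± 0.0827 CPM in ILC2s alone (SD, n = 3 each).

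Dendritic cell markers summed to 35.0 to 39.1 CPM in ILC2s with eosinophils and 24.0 to 27.7 CPM in ILC2s alone. Xcr1 gave most of both sums (25.5 and 23.9 CPM), and Ccr7 averaged 10.3 ± 2.27 CPM with eosinophils and 0.564 ± 0.213 CPM alone (SD, n = 3 each). Macrophage and monocyte markers summed to 465.5 to 564.6 CPM with eosinophils and 994.5 to 1035 CPM alone, nearly all from Ccr2. Basophil and mast cell markers, mostly Kit and Cd200r3, summed to 84.6 to 104.7 CPM with eosinophils and 222.1 to 239.9 CPM alone. Both sums were thus lower in the cocultured ILC2s. Of the 11 macrophage and monocyte markers, however, 4 (Csf1r, Adgre1, C1qc and Mertk) were higher in mean with eosinophils and 7 lower. Of the 11 basophil and mast cell markers, 5 (Mcpt8, Fcer1a, Ms4a2, Hdc and Prss34) were nevertheless higher in mean with eosinophils and 4 lower. In eosinophil libraries the summed B and plasma cell markers were 77.4 to 79.8 CPM with ILC2s and 144.7 to 160.8 CPM alone, mostly Tnfrsf13b. Of these 10 markers, however, 7 were higher in mean with ILC2s and 3 lower. Tnfrsf13b averaged 58.2 CPM with ILC2s and 137.7 CPM alone, and Jchain 1.83 CPM with ILC2s and 0.233 CPM alone. The neutrophil markers there, mostly Cxcr2, were 104.5 to 117.2 CPM with ILC2s and 181.3 to 193.1 CPM alone. Of these 8 markers, 2 (Ngp and Mmp8) were higher in mean with ILC2s and 5 lower. Macrophage and monocyte markers there, led by Adgre1, summed to 1832 to 1859 CPM with ILC2s and 1951 to 2004 CPM alone. Of these 11 markers, 6 were higher in mean with ILC2s and 5 lower. Ly6c2 averaged 19.7 CPM with ILC2s and 41.4 CPM alone, and Csf1r 410.6 CPM with ILC2s and 369.5 CPM alone. Dendritic cell markers there, mostly Itgax, summed to 686.3 to 814.6 CPM with ILC2s and 274.5 to 287 CPM alone. Of these 7 markers, 2 (Itgax and Ccr7) were higher in mean with ILC2s and 5 lower. Basophil and mast cell markers there, led by Gata2, summed to 109.6 to 117.8 CPM with ILC2s and 232.6 to 255.9 CPM alone. The part of these markers' cells in the changes of the 7 genes was not tested.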

How the data were processed

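RNA was measured in 12 libraries of 4 groups. The authors deposited whole-number read counts per gene with no normalization, checked here on the values. Per the submitters' processing notes, the tools were STAR 2.5.2b, Trimmomatic 0.36, bcl2fastq 2.17 and featureCounts with Subread 1.5.2, on build mm10. The strand setting and annotation release were not given in the sources used here, so overlapping genes on either strand cannot be told apart.

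Identifiers were matched to GENCODE M21 (48970 of 49315 had a symbol), which also gave positions and merged exon lengths on that build. No replicate was a duplicate: chi-square divided by its degrees of freedom was 2.57 to 19.5 between replicates, among genes of 20 or more counts. Each comparison was fitted in edgeR 4.0.16 (R 4.3.3) on the libraries concerned with filterByExpr, TMM and, with no covariates, the quasi-likelihood F test, and p-values were Benjamini-Hochberg adjusted over all genes tested, at a threshold of 0.05. The SE is the log2 fold change divided by the square root of F. Replicate variation (common BCV) came to 4.71% for ILC2s and 7.92% for eosinophils. Marker sums were compared by exact permutation in scipy 1.17.1. Tested on simulated data, the fits recovered 97.1% of 68 genes changed 1.5-fold among 14178 of the ILC2 comparison. They recovered 94.2% of 69 among 12904 of the eosinophil one, with 4.81% and 5.31% false calls among those called. For the difference of responses they recovered 73.1% of 67. The changed genes were a small share with ample mean counts, at a fixed replicate variation. Genes with as few counts as Prdm1 in eosinophils were therefore not covered. Nor was a change in as large a share of genes as the 72.4% called in ILC2s. Other scalings, filters, DESeq2 1.42.0, limma-voom (limma 3.58.1), a replicate block, a model of all libraries and leaving out each library were tried.

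The 7 genes and the gene lists were chosen with earlier results of these data known, so lists are described by counts and medians without a test. Named list genes were, per coculture comparison, up to 2 called genes with the highest and up to 2 with the lowest log2 fold change among those averaging 1 CPM or more, and exceptions are marked. Values of a few list genes are not reported here. No pairing was used, since the labels state none and deviations of same-numbered replicates correlated little (-0.018 to 0.097).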

Additional observations from a re-analysis of the deposited data

Results flagged for a closer look

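For all 7 genes the coculture response in ILC2s differed from that in eosinophils by a test of the difference itself, in edgeR over 12 libraries. Of all 15745 genes in that test, 51.5% were called, 26.8% higher and 24.8% lower in ILC2s. The differences, ILC2s minus eosinophils on the log2 scale, were 9.91 for Il10, 8.43 for Irf4, 4.98 for Il10ra, 2.93 for Prdm1, 2.72 for Batf, 0.62 for Maf and -0.32 for Il10rb. Il10ra is the gene among them whose responses passed the test with opposite signs and by over 1 on the log2 scale in each cell type. The value for Il10 rests on 1 count in eosinophils with ILC2s and 6 in eosinophils alone, and that for Prdm1 on 49 and 26. The largest adjusted p over the 12 left-out libraries was 0.000446 for Il10 and 0.0128 for Il10rb. Outlying libraries were not looked for within groups, since each holds 3.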

How the results depend on the processing

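Direction and call held in 104 of 105 refits of the 7 genes in ILC2s, 81 of 89 of 6 genes in eosinophils, 83 of 90 between cell types alone, 103 of 105 together and 140 of 140 for the difference of responses. With library totals in place of TMM, Maf in ILC2s moved to 0.0034, Irf4 between cell types alone to -0.58, Batf there to 0.60 and Il10ra between cocultured cells to 0.21, which shifted the median of all genes by -0.16, 0.57 and 0.40 in those comparisons. Upper quartile scaling gave 0.26 for Batf alone and 0.016 for Il10ra together. Either scaling left 1 gene called lower in cocultured ILC2s than in cocultured eosinophils. In eosinophils Batf was called under library totals (0.34), no filter (0.29), all 12 libraries in one model (0.31) and the replicate block (0.28), each of which made 1 gene called higher. Irf4 was called lower there with no filter (-0.85) and with all 12 libraries (-0.83). Leaving out each library in turn gave -1.21 to -0.19 for Irf4 and 0.20 to 0.36 for Batf in eosinophils, with 0 to 1 genes called higher, and -1.50 to -0.48 for Irf4 and -0.070 to 0.11 for Batf between cell types alone. Batf in eosinophils passed without replicate 3 of eosinophils alone (0.36), Batf between cell types alone turned sign without replicate 1 of ILC2s alone (-0.024) or replicate 2 of eosinophils alone (-0.070), and Irf4 there lost its call without replicate 1 of eosinophils alone or replicate 2 of ILC2s alone (-1.04). The labels do not say whether same-numbered libraries share more than a number (correlations of their deviations -0.018 to 0.097). The replicate block gave 2029 higher and 2139 lower genes in eosinophils, against 1493 and 1771 without it, and changed no call of the 7 genes but Batf. With at least 1 CPM required in 3 libraries, Prdm1 in eosinophils was filtered out and gave no value. The cause of these moves was not tested. Depth limits Il10 outside cocultured ILC2s and Prdm1 in eosinophils.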
